A study of Mus musculus with 8 samples.

Results

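The genes described here are 30 members of the cholesterol synthesis and SREBP2 pathway in mouse OT-I CD8+ T cells. They were taken by symbol from the deposited table of 41730 rows: 20 enzymes that make cholesterol, 6 genes of SREBP2 and its control, and 4 genes of sterol transport and esterification. All 30 were found, and all 30 were among the 12162 genes with enough reads to be tested. The study sequenced RNA of 8 samples of T cells of OT-I genotype, a mouse line in which the T cell receptor is a transgene for the ovalbumin peptide SIINFEKL. In every sample the T cells had been cultured with bone marrow-derived dendritic cells carrying that peptide and were then sorted by flow cytometry. Of these samples, 4 came from cultures with 2 µM RGX-104, an agonist of the liver X receptor (LXR; replicates 5 to 8), and 4 from control cultures with the solvent DMSO (replicates 1 to 4). The agonist was present in the shared culture, so the dendritic cells met it as well. The labels used here name no age, sex or strain. They also do not state whether samples are separate cultures or animals, so each p-value reflects spread among these 8 samples, and that spread may be technical.

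Cells build cholesterol from acetyl-CoA by way of mevalonate, the isoprenoid farnesyl pyrophosphate, squalene and lanosterol. The transcription factor SREBP2 drives the genes of this route. It waits in the endoplasmic reticulum bound to its escort SCAP, is held there by the INSIG proteins when sterols are plentiful, and is cut free by a pair of Golgi proteases when sterols run low. LXR answers the opposite state: oxidised sterols activate it, and it raises genes that export cholesterol. Activated T cells need sterols for new membrane, and the SREBP pathway is known to be switched on when they begin to grow.

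Many genes of this route are known targets of SREBP2, so promoter sequence was looked up for the members, and 26 of the 30 were found in a RefSeq table (GRCm38.p6) that holds 250 bases before and 50 bases after each annotated start. The 150 bases before the start are shown for Msmo1 (chr8:64733579-64733728, minus strand), the only member called by the test over all genes, for Cyp51 (chr5:4104698-4104847, minus strand) and Hmgcs1 (chr13:119690201-119690350, plus strand), which had unadjusted p-values under 0.05, and for Nsdhl (chrX:72918371-72918520, plus strand), which acts just after Msmo1 in the route and was not called. Each is read 5′ to 3′ on the strand of the gene, with matches to a sterol response element (TCACNCCAC) or a Y box (CCAAT, the letters bound by NF-Y) on either strand in capitals.
Msmo1: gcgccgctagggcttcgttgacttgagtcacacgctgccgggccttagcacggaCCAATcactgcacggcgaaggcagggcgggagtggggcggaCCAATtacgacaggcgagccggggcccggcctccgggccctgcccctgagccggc
Cyp51: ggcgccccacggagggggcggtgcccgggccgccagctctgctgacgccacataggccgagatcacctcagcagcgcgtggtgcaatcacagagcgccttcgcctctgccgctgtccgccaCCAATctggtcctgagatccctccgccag
Hmgcs1: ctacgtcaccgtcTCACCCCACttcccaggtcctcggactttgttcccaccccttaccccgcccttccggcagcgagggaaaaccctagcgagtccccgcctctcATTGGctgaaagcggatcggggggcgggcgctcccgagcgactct
Nsdhl: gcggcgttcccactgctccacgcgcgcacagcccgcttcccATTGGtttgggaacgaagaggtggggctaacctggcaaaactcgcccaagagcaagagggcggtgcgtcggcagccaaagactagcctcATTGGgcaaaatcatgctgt

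Among the 26 members, the exact letters TCACNCCAC were found in the window of Hmgcs1 alone, from 137 to 129 bases before its start. They were found in 1.35% of the 9365 tested genes in the same promoter table. Sterol response elements with other letters were not searched for, so a window without a match, such as that of Cyp51, may still hold one. A Y box stood in the windows of 22 of the 26 members, against 42.7% of those 9365 genes. The GC box (GGGCGG, the letters bound by Sp1) stood in 23 of the 26, against 67.8%. None of these motifs contains another, and overlaps between matches were not counted. These matches are letters in a window, not measured binding.

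The libraries held between 13144704 and 14947537 counts each in RGX-104 and between 14867824 and 15966972 in control. The exact two-sided permutation p of this measure was 0.0571, and 0.200 adjusted over 7 library measures. The LXR target Abca1, a cholesterol exporter, was at 85.2 ± 5.42 CPM in RGX-104 libraries and 8.13 ± 0.569 CPM in control libraries (CPM are counts put on a common library size with TMM scaling; values are mean ± SD over 4 libraries). Markers of the labelled cell type were expressed. The 10 CD8 T cell markers summed to between 2304 and 2387 CPM in RGX-104 libraries and between 1955 and 2005 CPM in control libraries. Cd4 reached at most 0.134 CPM. The 4 CD4 T cell markers summed to between 3.28 and 5.84 CPM in RGX-104 and between 4.86 and 6.14 CPM in control. For the 4 erythroid markers the sums were 97.6 to 122 CPM in RGX-104 and 110 to 114 CPM in control. Markers of dendritic cells and macrophages without Ccr7, which T cells also express, summed to between 124 and 145 CPM in RGX-104 libraries and between 122 and 136 CPM in control libraries. Of the 18 genes on that list, H2-Aa, H2-Ab1 and H2-Eb1 were listed at 0 in all libraries, where a repeated symbol in the table makes the value uncertain, and Xcr1 and Clec9a were at or near 0. Cst3 held the largest part of these sums, with 68.9 CPM in RGX-104 and 68.0 CPM in control. None of the 12 tested genes of that list was called by edgeR, with 6 negative and 6 positive log2 fold changes. An unadjusted p under 0.05 with a lower value in RGX-104 was found for 2, against 7.52% of all tested genes. These were Ccl22 (1.61 CPM in RGX-104 and 3.66 CPM in control) and Fscn1 (2.37 CPM in RGX-104 and 4.23 CPM in control). The CD8 marker sums of the groups did not overlap (exact two-sided permutation p = 0.0286, the smallest that 4 against 4 samples allow; adjusted over 7 library measures 0.200). Of the 10 CD8 markers 4 were called higher with RGX-104 by edgeR, against 0.888% of all tested genes. Among them, the log2 fold change ± SE was 0.52 ± 0.05 for Cd8a, with an adjusted p of 3.14e-07, and 0.39 ± 0.05 for Cd8b1, with an adjusted p of 2.89e-05. The part of this shift in the results below was not tested.

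Of the 30 members, 1 fell and 0 rose by edgeR's quasi-likelihood test at an adjusted p under 0.05. Over all tested genes 2.66% were called, 1.78% lower and 0.888% higher with RGX-104, so the members' share was near that of all genes. The gene that fell was Msmo1. The other 29 were not called, and 3 of them, Hmgcs1, Fdps and Cyp51, had unadjusted p-values under 0.05 with lower values in RGX-104. With Msmo1 these were 4 of 30, against 7.52% of all tested genes. None of the 30 had such a p with a higher value. The median log2 fold change was -0.03 over the 30 members, with 17 negative and 13 positive, and 0.00 over all genes tested, of which 49.4% were negative. With 1 replicate left out, 16 to 19 of the 30 were negative, and their median ran from -0.05 to -0.01. DESeq2 on the same counts called 3 members lower, Msmo1, Fdps and Cyp51, and 0 higher.

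The depth and the replicates set what could have been missed. In 24 of the 30 members the 95% interval of the log2 fold change lay within -0.5 to 0.5, a bound of 1.41-fold, and in 29 it lay within -1 to 1. The exception was Tm7sf2, a sterol reductase with few reads, whose interval ran from -0.20 to 1.52. Replicates lay close together: the coefficient of variation of a member within a group had a median of 9.30% in RGX-104 libraries and 8.09% in control libraries, with the highest values for Tm7sf2 (44.9%) and Mbtps2 (30.5%).

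**Figure D1:**
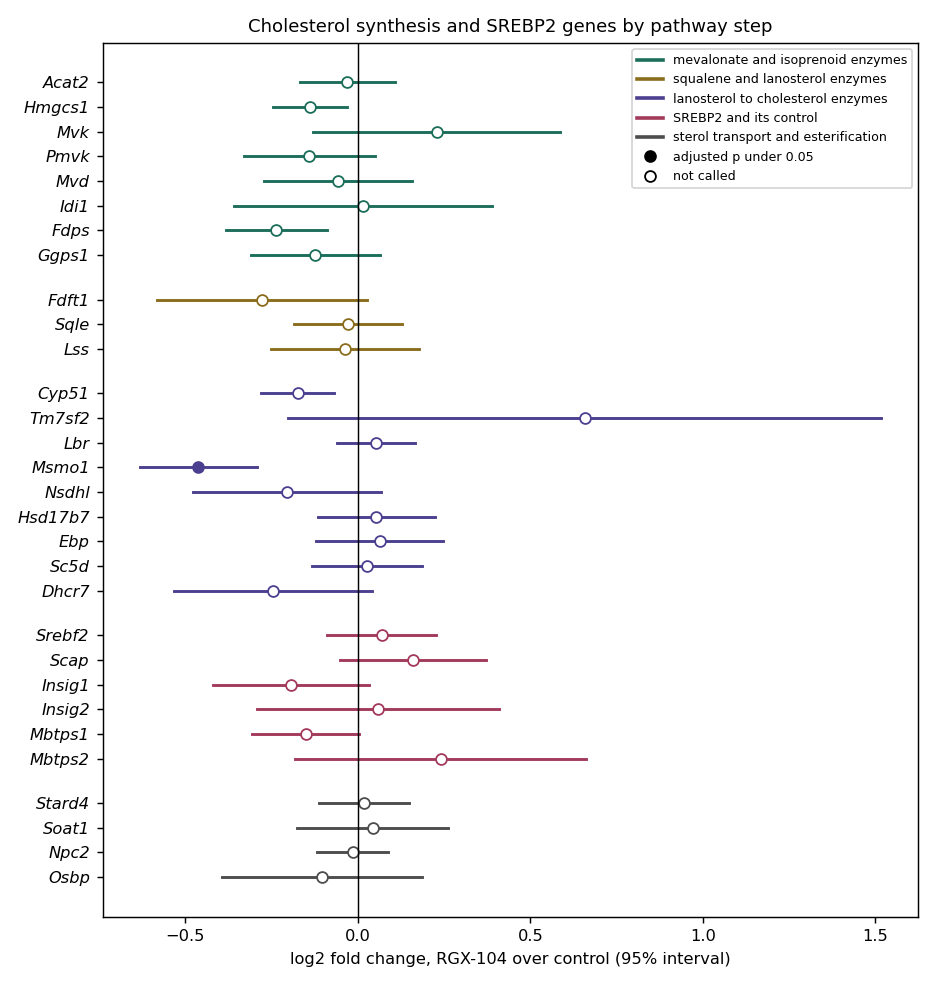
The log2 fold change of RGX-104 over control is shown for each of the 30 genes with its 95% interval, grouped by pathway step, with a filled point for an adjusted p under 0.05. Msmo1 is the only filled point, at -0.46, and the intervals of 26 genes cross 0.

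The early enzymes turn acetyl-CoA into mevalonate and then into isoprenoid building blocks. None of the 8 was called, 6 had negative and 2 positive log2 fold changes, and their median was -0.09. Hmgcs1 (chromosome 13, 119690351 to 119708260), the synthase that commits acetyl-CoA to this route, was at 374, 346, 328 and 334 CPM in RGX-104 replicates 5 to 8, against 382, 371, 377 and 392 CPM in control replicates 1 to 4. Only RGX-104 replicate 5 reached into the control range. The gene's log2 fold change was -0.14 ± 0.05 (SE), with an unadjusted p of 0.0132 and an adjusted p of 0.204.

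Fdps (chromosome 3, 89093588 to 89101967), which makes farnesyl pyrophosphate, was at 85.8, 77.1, 80.3 and 83.5 CPM in RGX-104 replicates 5 to 8, against 95.1, 92.3, 93.6 and 103.9 CPM in control replicates 1 to 4. The groups did not overlap, which was so, in that direction, for 4.32% of all tested genes. With a log2 fold change of -0.24 ± 0.07 the gene missed the threshold (adjusted p = 0.0891), while DESeq2 gave an adjusted p of 0.0276. The end of an Fdps transcript is 95% or more identical to stretches of 6 other annotated genes, so the count of Fdps is uncertain.

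None of the remaining 6 enzymes of this step was called. Acat2, which joins acetyl-CoA units, averaged 123 ± 3.30 CPM in RGX-104 libraries and 126 ± 10.1 CPM in control libraries (SD, n = 4 each, as for the next 5 genes). Mevalonate kinase, Mvk, averaged 23.0 ± 4.43 CPM in RGX-104 and 19.6 ± 5.00 CPM in control, and the 95% interval of its log2 fold change was wide, -0.13 to 0.59. Pmvk, the kinase that follows it, averaged 53.4 ± 4.54 CPM in RGX-104 and 58.9 ± 4.85 CPM in control, and the decarboxylase Mvd 44.8 ± 5.12 CPM in RGX-104 and 46.6 ± 4.24 CPM in control. These kinases and the decarboxylase carry mevalonate to the first isoprenoid unit. Idi1, the isomerase of that unit, averaged 9.32 ± 0.587 CPM in RGX-104 and 9.23 ± 0.835 CPM in control. Ggps1, which makes the longer geranylgeranyl chain, averaged 63.9 ± 7.37 CPM in RGX-104 and 69.6 ± 4.97 CPM in control. Of these 6 genes, Pmvk had the smallest unadjusted p, 0.139. Transcript ends of Acat2, Idi1 and Ggps1 also match at least 1 other annotated gene.

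Squalene and lanosterol are made by 3 enzymes, and none was called. Fdft1, the squalene synthase, was at 21.7 ± 3.03 CPM in RGX-104 libraries and 26.3 ± 4.82 CPM in control libraries (SD, n = 4 each). Its last exon overlaps exons of Ctsb, a lysosomal protease gene, on the opposite strand over 774 bp, and Ctsb was at 51.8 CPM in RGX-104 and 58.1 CPM in control, so reads of this pair could not be told apart with certainty. Sqle, the squalene epoxidase and a rate-controlling enzyme of the route, was at 68.9, 66.3, 73.3 and 71.5 CPM in RGX-104 replicates 5 to 8, against 70.5, 68.3, 72.5 and 74.1 CPM in control replicates 1 to 4. The groups covered nearly the same range, and the 95% interval of its log2 fold change was -0.18 to 0.13. Lss, the lanosterol synthase, was at 38.7, 44.2, 51.7 and 42.5 CPM in RGX-104 replicates 5 to 8, against 44.2, 41.5, 46.3 and 49.8 CPM in control replicates 1 to 4, and its RGX-104 values lay on both sides of the control range.

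Lanosterol is turned into cholesterol by 9 enzymes of the list, and here the single called member stood. Msmo1 (chromosome 8, 64718123 to 64733578), the oxidase that starts the removal of the pair of methyl groups at carbon C4 of the sterol ring, was at 69.4, 75.9, 74.9 and 75.3 CPM in RGX-104 replicates 5 to 8, against 88.4, 96.0, 106 and 117 CPM in control replicates 1 to 4. Every RGX-104 library lay below every control library, and the spread was wider in control (coefficient of variation 4.09% in RGX-104 and 12.1% in control). Msmo1 fell by 27.4% (95% interval -35.5% to -18.3%), a log2 fold change of -0.46 ± 0.08 with an adjusted p of 0.00161. Under the 14 alternative settings its log2 fold change ran from -0.52 to -0.39 and its adjusted p from 1.04e-05 to 0.0119. No overlap of its exons with another gene and no matching transcript end was found. In bulk RNA, less RNA per cell and fewer cells that make it cannot be told apart, here and below.

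Cyp51 (chromosome 5, 4080674 to 4104697), the demethylase that takes the first methyl group off lanosterol, before the steps of Msmo1, was at 304, 279, 280.2 and 287 CPM in RGX-104 replicates 5 to 8, against 329, 312, 323 and 334 CPM in control replicates 1 to 4. The groups did not overlap, but the difference was small, a log2 fold change of -0.17 ± 0.05 (adjusted p = 0.0711). It passed the threshold with DESeq2 (adjusted p = 0.0115) and without RGX-104 replicate 5, its highest treated library (edgeR adjusted p = 0.0402). Its last exon overlaps exons of Akap9 on the opposite strand over 166 bp, and Akap9 was at 216 CPM in RGX-104 and 237 CPM in control (log2 fold change -0.13).

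The reductase step between Cyp51 and Msmo1 is shared by Lbr and Tm7sf2, and neither was called. Lbr, also a protein of the nuclear envelope, averaged 254 ± 14.9 CPM in RGX-104 and 245 ± 6.12 CPM in control (SD, n = 4 each), with overlapping groups. Tm7sf2 had only 1.67 to 4.22 CPM in RGX-104 and 1.07 to 1.87 CPM in control, with a log2 fold change of 0.66. Within the last 500 bases of a Tm7sf2 transcript, a stretch of 279 bp matches Vps51. Exons of Tm7sf2 and Vps51 overlap on the same strand over 532 bp, with 0 bp of this in the last exons of Tm7sf2.

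Nsdhl and Hsd17b7, which complete the removal of the C4 methyl groups that Msmo1 begins, were not called. Nsdhl averaged 27.2 ± 3.00 CPM in RGX-104 libraries and 31.4 ± 5.43 CPM in control libraries, and Hsd17b7 averaged 61.5 ± 3.08 CPM in RGX-104 libraries and 59.3 ± 2.57 CPM in control libraries (SD, n = 4 each). The count of Msmo1 relative to Hsd17b7 in the same library was 1.11, 1.16, 1.24 and 1.30 in RGX-104 replicates 5 to 8, against 1.47, 1.58, 1.74 and 2.10 in control replicates 1 to 4. These ratios did not overlap, and the exact two-sided permutation p of 0.0286 is the smallest that 4 against 4 samples allow. Adjusted over the 6 ratios of this kind that were compared, all chosen after their values were seen, it was 0.0572. Msmo1 was already called when this pair was chosen, so the p is no separate support. The ratio of Msmo1 to Nsdhl differed by -0.26 on the log2 scale (exact permutation p = 0.229) and that of Msmo1 to Cyp51 by -0.28 (exact permutation p = 0.0571), so a fall of Msmo1 beyond that of these enzymes was not shown.

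None of the 3 enzymes that act after these was called. Ebp, the isomerase of the sterol ring, averaged 66.5 ± 6.85 CPM in RGX-104 and 63.7 ± 4.79 CPM in control (SD, n = 4 each, as for the next gene). Sc5d, a sterol desaturase, averaged 87.1 ± 8.20 CPM in RGX-104 and 85.5 ± 3.64 CPM in control, and the groups of both genes overlapped. Dhcr7, which carries out the final reduction to cholesterol, was at 19.8, 30.3, 24.5 and 22.6 CPM in RGX-104 replicates 5 to 8, against 29.0, 32.1, 24.3 and 29.9 CPM in control replicates 1 to 4. The groups overlapped, and its log2 fold change of -0.25 ± 0.14 was not called (adjusted p = 0.452).

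**Figure D2:**
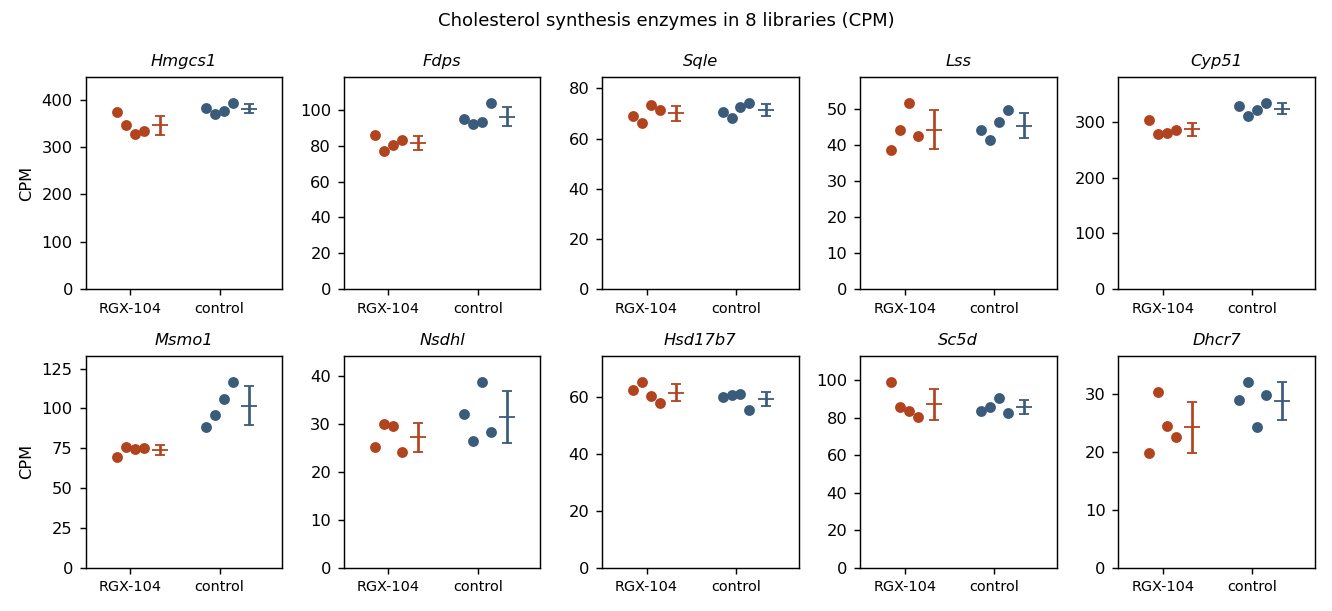
CPM of 10 enzymes in the 4 RGX-104 libraries and the 4 control libraries, with the mean and SD beside the points and the axis starting at 0. The RGX-104 points of Fdps, Cyp51 and Msmo1 lie below all control points, whereas those of Sqle, Lss, Hsd17b7 and Sc5d overlap them.

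Added up, the 20 enzymes took 0.179, 0.181, 0.173 and 0.173% of all counts in RGX-104 replicates 5 to 8, against 0.187, 0.185, 0.187 and 0.195% in control replicates 1 to 4. The RGX-104 shares lay below all control shares, with means of 0.177 ± 0.00417% in RGX-104 and 0.189 ± 0.00464% in control (SD, n = 4 each). Summed over the 20 enzymes, mean CPM in RGX-104 minus control was -125. Hmgcs1, Fdps, Cyp51 and Msmo1, picked by their unadjusted p in these data, held -114 of it. The other 16 enzymes held -11.2, a net value of rises and falls. Since the picked genes were all lower and a CPM sum weights abundant genes, this split cannot show how widely the fall was spread. Log2 fold changes were negative in 13 and positive in 7 of the 20. The genes of SREBP2 and its control took 0.0369 ± 0.00124% in RGX-104 and 0.0363 ± 0.00157% in control, and those of transport and esterification 0.0657 ± 0.00191% in RGX-104 and 0.0658 ± 0.000661% in control. These shares and summed CPM describe the libraries and were not tested.

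None of the 6 genes that make up or control SREBP2 was called, 2 had negative and 4 positive log2 fold changes, and their median was 0.06. Srebf2, which encodes SREBP2, was at 141, 143, 150 and 148 CPM in RGX-104 replicates 5 to 8, against 157, 114, 142 and 142 CPM in control replicates 1 to 4. The RGX-104 values lay inside the control range, and the 95% interval of the log2 fold change was -0.09 to 0.23. Scap, the escort that carries SREBP2 to the Golgi, was at 76.7, 78.9, 99.1 and 86.0 CPM in RGX-104 replicates 5 to 8, against 66.2, 87.2, 86.4 and 64.9 CPM in control replicates 1 to 4, with overlapping groups (log2 fold change 0.16, adjusted p = 0.517).

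Insig1, which retains SCAP in the endoplasmic reticulum and is itself a target of SREBP2, was at 41.5, 33.9, 32.0 and 35.2 CPM in RGX-104 replicates 5 to 8, against 45.5, 38.3, 40.8 and 38.5 CPM in control replicates 1 to 4. Only RGX-104 replicate 5 reached the control range, and the log2 fold change of -0.19 ± 0.11 was not called (adjusted p = 0.450). Its relative Insig2, which has the same role, was at 10.7, 15.4, 11.5 and 12.3 CPM in RGX-104 replicates 5 to 8, against 13.0, 11.2, 11.4 and 12.4 CPM in control replicates 1 to 4, with RGX-104 values on both sides of the control range. The ratio of Insig1 to Insig2 differed by -0.24 on the log2 scale (exact two-sided permutation p = 0.229). Mbtps1, the first protease to cut SREBP2, averaged 77.9 ± 4.57 CPM in RGX-104 and 86.5 ± 5.19 CPM in control, and Mbtps2, the protease that cuts after it, 12.0 ± 1.10 CPM in RGX-104 and 10.1 ± 3.09 CPM in control (SD, n = 4 each). Mbtps2 shares its last exons with Yy2 over 2867 bp on the same strand, so its counts are uncertain.

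None of the 4 genes that move or store sterols was called, and their log2 fold changes lay between -0.10 and 0.04. Stard4, a carrier of sterols through the cytosol and a known SREBP2 target, was at 149, 137, 139 and 146 CPM in RGX-104 replicates 5 to 8, against 129, 142, 148 and 144 CPM in control replicates 1 to 4. Soat1, which esterifies cholesterol for storage, was at 61.2, 59.0, 55.2 and 46.1 CPM in RGX-104 replicates 5 to 8, against 53.1, 58.7, 58.8 and 44.7 CPM in control replicates 1 to 4. In both genes the groups overlapped almost fully. Npc2, which hands cholesterol out of lysosomes, averaged 439 ± 20.9 CPM in RGX-104 and 444 ± 18.0 CPM in control (SD, n = 4 each). Osbp, an oxysterol-binding exchanger at membrane contacts, averaged 19.8 ± 2.52 CPM in RGX-104 and 21.3 ± 2.07 CPM in control. The 95% interval of the log2 fold change was -0.12 to 0.09 for Npc2 and -0.11 to 0.15 for Stard4.

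**Figure D3:**
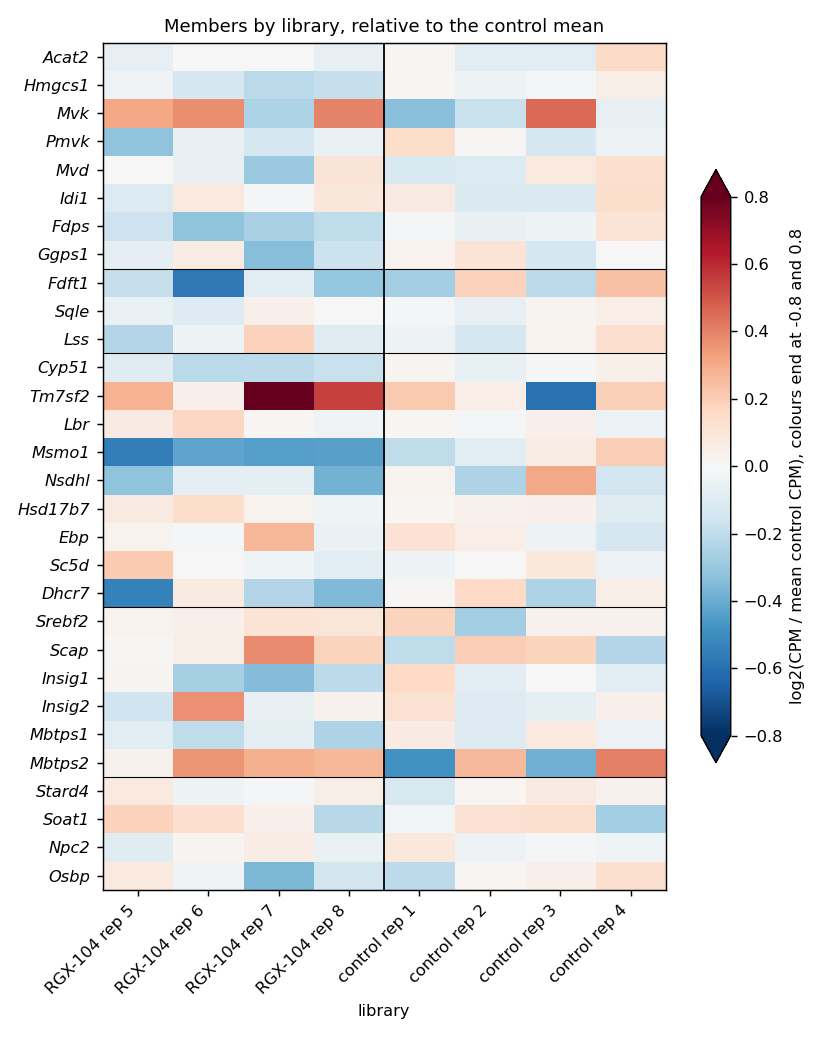
Each row is 1 of the 30 genes and each column 1 library, coloured by log2 of its CPM over the mean control CPM, with RGX-104 libraries on the left and lines between pathway steps. Hmgcs1, Pmvk, Fdps, Fdft1, Cyp51, Msmo1, Nsdhl and Mbtps1 are below the control mean in all RGX-104 libraries, Tm7sf2, Srebf2, Scap and Mbtps2 are above it in all of them, and Tm7sf2 in RGX-104 replicate 7 is the highest value at 1.38.

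A further 60 genes of the same biology were listed from knowledge of the pathway: other enzymes and electron donors, sterol-sensing regulators, the isoprenoid branches, and sterol uptake, transport and oxidation. Of the 57 that could be tested, 2 rose and 1 fell, where 0.888% of all tested genes were called higher and 1.78% lower. The log2 fold change was positive in 39 and negative in 18 of the 57, with a median of 0.06.

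Rnf145 (chromosome 11, 44518793 to 44565520), a ubiquitin ligase of the endoplasmic reticulum that in mouse liver is induced by LXR and restrains SREBP2 processing through SCAP, was at 83.1, 83.6, 82.9 and 102 CPM in RGX-104 replicates 5 to 8, against 53.7, 46.4, 62.8 and 52.3 CPM in control replicates 1 to 4. All RGX-104 libraries lay above all control libraries, as for 3.88% of tested genes. It rose by 63.3% (95% interval 42.4 to 87.3%), a log2 fold change of 0.71 ± 0.10 with an adjusted p of 6.26e-05. The other ligases and regulators of the list, among them Rnf139, Syvn1 and Marchf6, were not called, apart from Srebf1, which rose by 0.44 on the log2 scale.

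Srebf1 encodes SREBP1, the relative of SREBP2 that favours fatty acid genes and is an LXR target. Its transcript was at 72.5, 87, 75.9 and 80.2 CPM in RGX-104 replicates 5 to 8, against 59, 53.7, 57.9 and 61.4 CPM in control replicates 1 to 4. The groups did not overlap, and the adjusted p was 0.00231. The ratio of Srebf2 to Srebf1 counts was 1.95, 1.64, 1.97 and 1.85 in RGX-104 replicates 5 to 8, against 2.65, 2.13, 2.45 and 2.31 in control replicates 1 to 4. The groups did not overlap, with a difference of -0.36 on the log2 scale. The exact two-sided permutation p was 0.0286, and 0.0572 adjusted over 6 ratios. This pair was chosen after its values were seen, with Srebf1 already called, so the p is no separate support. Since a ratio within a library shows unequal change, the values of Srebf2 given above are needed beside it. The last exon of Srebf1 overlaps Rai1 on the opposite strand over 109 bp.

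Soat2 (chromosome 15, 102150415 to 102163469), the esterifying enzyme known mainly from intestine and liver, was low in all libraries, at 3.30, 4.94, 4.35 and 3.35 CPM in RGX-104 replicates 5 to 8, against 18.3, 13.1, 14.1 and 8.46 CPM in control replicates 1 to 4. The groups did not overlap. Soat2 fell by 70.4% (95% interval -79.0% to -58.3%), a log2 fold change of -1.76 ± 0.24 with an adjusted p of 6.90e-05. The deposited counts behind this were 44 to 71 reads in RGX-104 libraries and 128 to 284 reads in control libraries. The ratio of Soat1 to Soat2 counts was 14.0 in RGX-104 and 4.11 in control (geometric means). Its exact two-sided permutation p was 0.0286, and 0.0572 adjusted over 6 ratios. The pair was chosen after its values were seen, with Soat2 already called, so this p is no separate support. Near the Soat2 transcript end, a stretch of 173 bp matches Gm12976 and a stretch of 128 bp matches Slco2a1, at 95% identity or more. Slco2a1 was at 5.05 CPM in RGX-104 and 4.79 CPM in control.

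Stard5, a sterol carrier related to Stard4, was at 14.0, 16.6, 16.5 and 12.5 CPM in RGX-104 replicates 5 to 8, against 17.8, 21.8, 33.2 and 17.1 CPM in control replicates 1 to 4. The groups did not overlap, but the log2 fold change of -0.59 ± 0.19 was not called (adjusted p = 0.110), and it was -0.34 without control replicate 3, the highest library (adjusted p = 0.430). Its last exons overlap Il16 on the opposite strand over 1202 bp, and Il16 had the same log2 fold change of -0.59, at 10.96 CPM in RGX-104 and 16.5 CPM in control, so the pair cannot be told apart with certainty.

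Along the isoprenoid branches, which lead from farnesyl pyrophosphate to dolichol, ubiquinone and protein prenylation, none of 13 genes was called by edgeR, 11 had positive log2 fold changes and the median was 0.16. An unadjusted p under 0.05 with a higher value in RGX-104 was found for 3 of them, against 6.28% of all genes tested. Dhdds, a subunit of the dolichol chain synthase, averaged 43.0 ± 4.60 CPM in RGX-104 and 34.6 ± 3.48 CPM in control (SD, n = 4 each; adjusted p = 0.167), and its partner subunit Nus1 134 ± 9.26 CPM in RGX-104 and 119 ± 6.47 CPM in control (adjusted p = 0.226). The third was Pdss1, which builds the ubiquinone tail (25.6 CPM in RGX-104 and 20.7 CPM in control, adjusted p = 0.359). Other enzymes and electron donors (10 tested) gave no call, and in uptake, transport and oxidation (23 tested) Soat2 alone was called. DESeq2 and limma-voom called the same 3 of the 57 genes, Rnf145, Srebf1 and Soat2.

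**Figure D4:**
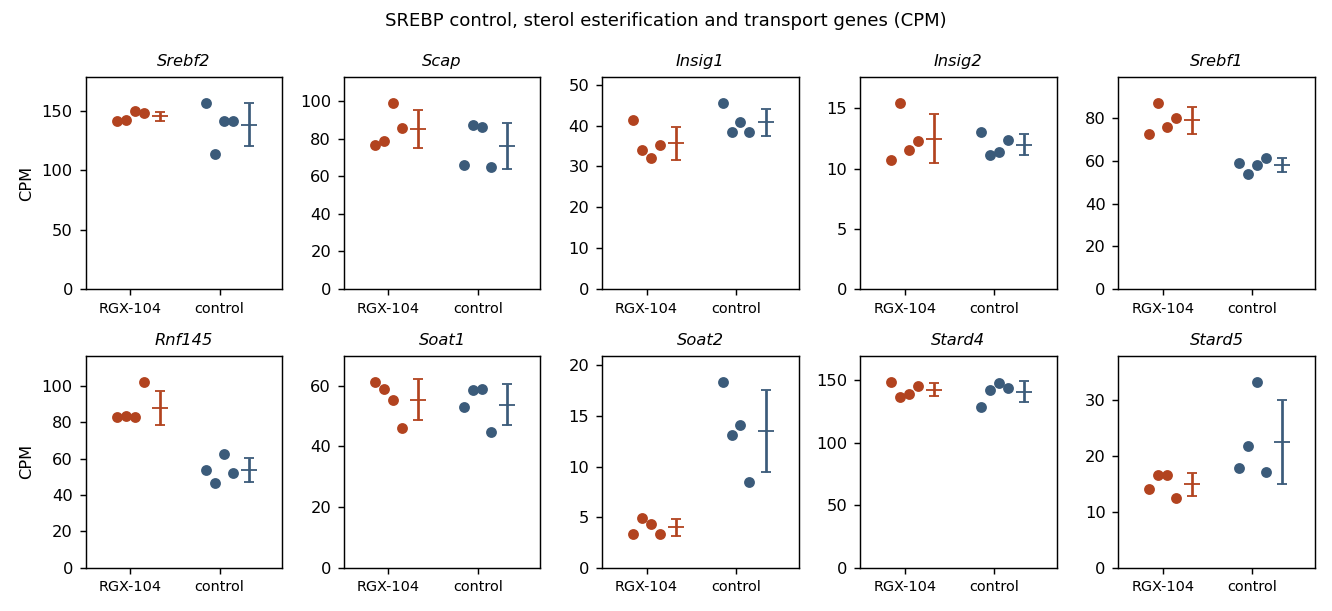
CPM of 10 genes of SREBP control, sterol esterification and transport in the 4 RGX-104 and the 4 control libraries, with the mean and SD beside the points and the axis starting at 0. Srebf1 and Rnf145 lie higher and Soat2 and Stard5 lower in every RGX-104 library, while Srebf2, Scap, Insig1, Insig2, Soat1 and Stard4 overlap between the groups.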

How the data were processed

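Libraries were made from transcript ends (Lexogen 3′ FWD kit, per the labels' protocols). The authors deposited raw whole-number counts, 1 column per sample and 1 row per gene, with a number added to a repeated symbol, and 0 columns belonged to another series. The submitters' processing notes name STAR 2.7.8a, R 4.1.0, DESeq2 1.4 and GRCm38. How reads were assigned to genes, by strand or among copies, and whether molecular identifiers were used is not given in the sources.

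The counts were fitted in edgeR 4.0.16 (R 4.3.3) with filterByExpr, TMM and a quasi-likelihood test of RGX-104 against control in 8 libraries, two-sided, with Benjamini-Hochberg adjustment over 12162 genes. A standard error is the log2 fold change over the square root of F, and its 95% interval uses the fit's t distribution. CPM count transcript ends, and a ratio of a pair of genes within a library was used only to compare the groups. The biological coefficient of variation was 14.5%. No 2 libraries of a group were alike within counting noise (6.61 to 10.2 times the expected chi-square).

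The members, lists and 6 ratios were chosen with earlier results of these data known. Every member is named. Values in all libraries are given for members that were called, had an unadjusted p under 0.05 or were key to a step, and other pathway genes are named if called or with an unadjusted p under 0.01; some other genes of the lists are not reported here. Nus1, Pdss1, Cd8a, Cd8b1, Cst3, Ccl22, Fscn1 and 3 ligases were added after their values were seen. Exon overlaps (at least 100 bp) come from GENCODE M21, and matches of the last 500 bases of transcripts (95% identity over 100 bases) from BLAST 2.17.0. Alternatives were DESeq2 1.42.0, limma-voom (limma 3.58.1), other scaling, no filter, robust estimation and leaving out each replicate. The test functions were also run on simulated data, whose outcome is not reported here, so no result above rests on it.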

Additional observations from a re-analysis of the deposited data

Results flagged for a closer look

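A single library stood far from the other 3 of its group, by Dixon's test on the gap over the range, in 3 of 78 groups of 4 values checked for the 39 genes followed through all settings; chance alone flags about 1 in 20 groups. Mvk was at 16.5 CPM in RGX-104 replicate 7, below the 24.3 to 25.9 CPM of the other RGX-104 libraries. Msmo1 was at 69.4 CPM in RGX-104 replicate 5, below the 74.9 to 75.9 CPM of the other RGX-104 libraries, and its adjusted p without that library was 0.00952. Rnf145 was at 102 CPM in RGX-104 replicate 8, above the 82.9 to 83.6 CPM of the other RGX-104 libraries, and its adjusted p without that library was 0.000785.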

How the results depend on the processing

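The labels used here do not state whether RGX-104 and control samples were paired, so no paired analysis was made. Of 420 alternative values of the 30 members' log2 fold changes, 417 kept the side of the threshold and none of the called ones changed sign. The exceptions were Fdps (-0.24) and Cyp51 (-0.17) called with DESeq2, and Cyp51 (-0.20) without RGX-104 replicate 5, so that 3 members were lower with DESeq2 and 1 to 2 when 1 replicate was left out, against 1. DESeq2 called 190 genes higher over the whole table, against 108, and leaving out 1 replicate gave 57 to 93 higher and 144 to 211 lower. The count of higher genes fell by over 1.5 times without control replicates 1 (66), 2 (57) and 3 (58) and RGX-104 replicates 6 (65), 7 (61) and 8 (60). All 126 alternative values of the 9 other pathway genes followed kept their side. The 63 alternative values of the summed shares moved by less than 1 SD. With 1 replicate left out the smallest exact p for a ratio is 0.0571, so these could not pass. Depth limited Tm7sf2 most among the members, with 17 to 63 reads a library.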
